A study of Mus musculus with 6 samples.

Results

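Genes of the motile cilium and of multiciliation were followed in cortical cells of mouse embryos that had received an shRNA against Nat14 (shNat14) or a control shRNA (NTC). They were taken from the authors' deposited table by symbol, as the rows named Dnah, Rsph or Tekt with a number and 28 listed genes, which gave 36 rows of 21937. Of the 28 listed genes 25 had a row and 3, Mcidas, Cfap54 and Pifo, were absent under these symbols. There were 6 Rsph rows, 5 Tekt rows and 0 Dnah rows, because the table carries the dynein heavy chains under the older symbols Dnahc. Those rows are described apart from the 36 genes. None of the 36 passed an adjusted p of 0.05, a threshold that 0.155% of all genes passed. A positive fold change was found in 31 of the 35 above the lowest level, against 52.4% of all genes above it.

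The shNat14 group had 3 libraries and the NTC group had 3. In both, plasmid was injected into the lateral ventricle at embryonic day 14.5 and driven into the cells lining it by electroporation, a method that reaches cells at the ventricle and their offspring. Cortex was dissected at embryonic day 18.5, and GFP-positive living cells were collected by sorting, so each library is a mixture of all cell types that carried the plasmid. The labels used here give neither strain, sex nor embryos per library, and p-values here reflect only how these libraries vary, possibly for technical reasons. The authors' deposited table holds 1 log2 fold change, 1 mean level over the libraries in log2 CPM (counts scaled to a common library size), 1 p-value and 1 adjusted p per gene, with no values per library. The depth is therefore unknown. Fold changes are shNat14 relative to NTC, a direction read from the shRNA's target Nat14, which stood at -3.31 in the authors' deposited table. Approximate SEs were computed from the deposited fold change and p-value as if the test were a normal one, and are written as SE below. Markers of cortical neurons were present, with Neurod6 at 11.30 and Dcx at 9.82 mean log2 CPM in the authors' deposited table.

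Motile cilia are built on a ring of microtubule doublets around a central pair. Outer and inner dynein arms slide the doublets, radial spokes and the central apparatus regulate the arms, and tektins run along the doublet wall. In the brain they are carried in tufts by ependymal cells, which arise from radial glia. Choroid plexus epithelium also carries tufts of cilia. The coiled-coil protein multicilin (Mcidas) and the transcription factors Foxj1, Rfx2 and Rfx3 switch on the genes that cells need to build motile cilia. Multiciliated ependymal cells mature after birth in the mouse.

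RFX factors bind the X-box motif and Foxj1 a forkhead motif, so the promoters of the members with the smallest p-values are shown. RefSeq promoter windows (build GRCm38.p6) were found by symbol for 30 of the 36 genes, and the 250 bases before each start were searched on both strands for the RFX half-site GTTGCC and the forkhead sequence GTAAACA, which do not overlap each other in the windows printed here. The half-site was present in 10 of the 30 genes (33.3%), against 11.8% of all 27025 genes in the table of promoters and 12% of its 17491 protein-coding genes. The forkhead sequence was present in 3 of the 30 (Mlf1, Ak7 and Tekt3, 10%), against 3.54% of all genes and 3.04% of protein-coding genes. Both motifs were chosen with the members known, and a match is a description of the letters in the window. The 4 genes with the smallest p that have a window were Mlf1 (chr3:67373847-67374096, plus strand), Lrriq1 (chr10:103236323-103236572, minus strand), Spag17 (chr3:99885167-99885416, plus strand) and Ccdc113 (chr8:95533850-95534099, plus strand). Each is printed 5′ to 3′ up to the base before the annotated start, with motif matches in capitals.
Mlf1: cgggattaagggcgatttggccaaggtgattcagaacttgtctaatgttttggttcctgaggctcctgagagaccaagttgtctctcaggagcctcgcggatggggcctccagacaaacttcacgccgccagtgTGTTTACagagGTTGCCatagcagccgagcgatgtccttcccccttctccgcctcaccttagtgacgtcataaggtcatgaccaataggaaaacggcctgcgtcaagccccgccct
Lrriq1: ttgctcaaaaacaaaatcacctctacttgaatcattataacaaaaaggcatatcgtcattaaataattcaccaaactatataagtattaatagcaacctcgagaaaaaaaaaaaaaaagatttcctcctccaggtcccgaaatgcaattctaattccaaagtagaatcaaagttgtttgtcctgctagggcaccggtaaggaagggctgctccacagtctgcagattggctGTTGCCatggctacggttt
Spag17: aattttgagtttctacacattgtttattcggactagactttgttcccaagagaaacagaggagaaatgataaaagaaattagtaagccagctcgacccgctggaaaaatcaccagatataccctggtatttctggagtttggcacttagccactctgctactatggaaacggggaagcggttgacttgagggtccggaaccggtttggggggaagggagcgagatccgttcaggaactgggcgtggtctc
Ccdc113: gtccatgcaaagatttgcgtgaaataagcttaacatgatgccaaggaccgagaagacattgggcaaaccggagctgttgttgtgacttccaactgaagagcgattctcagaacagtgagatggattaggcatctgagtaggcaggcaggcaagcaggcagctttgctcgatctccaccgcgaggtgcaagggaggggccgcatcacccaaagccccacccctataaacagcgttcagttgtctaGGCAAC
The Mlf1 window holds both sequences, a forkhead match on the reverse strand 116 to 110 bases before the start and a half-site 105 to 100 bases before it. The half-site of Lrriq1 lies 19 to 14 bases before the start, that of Ccdc113 lies 6 to 1 bases before it on the reverse strand, and the Spag17 window has neither sequence.

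The authors' deposited table put 0 of the 36 genes past an adjusted p of 0.05, a threshold that 0.155% of all its genes passed, 0.0547% as higher in shNat14. The test behind these p-values is not given in the sources used here. Rsph6a, a radial spoke head gene, sat at the lowest mean level (log2 CPM -3.09, shared by 4537 genes), which left 35 genes with a fold change. Of these 35 genes, 31 had a positive and 4 a negative fold change, and the median log2 fold change was 0.70. Over the 17400 genes above the lowest level, 52.4% had a positive fold change and the median was 0.00. At unadjusted p under 0.05 there were 11 of the 35 genes (31.4%), 11 higher and 0 lower in shNat14. The same threshold took 6.35% of the 17400 genes, 3.51% higher and 2.84% lower. Among the 12197 genes within the range of mean level of the 35, 3.57% were higher at this threshold and 51.4% had a positive fold change. A log2 fold change above 1 was found in 12 of the 35 genes and in 5.71% of those 12197. Since the genes were chosen with earlier results of these data known, these counts carry no test. In bulk libraries, more cells of a type and more RNA per cell cannot be told apart.

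**Figure D1:**
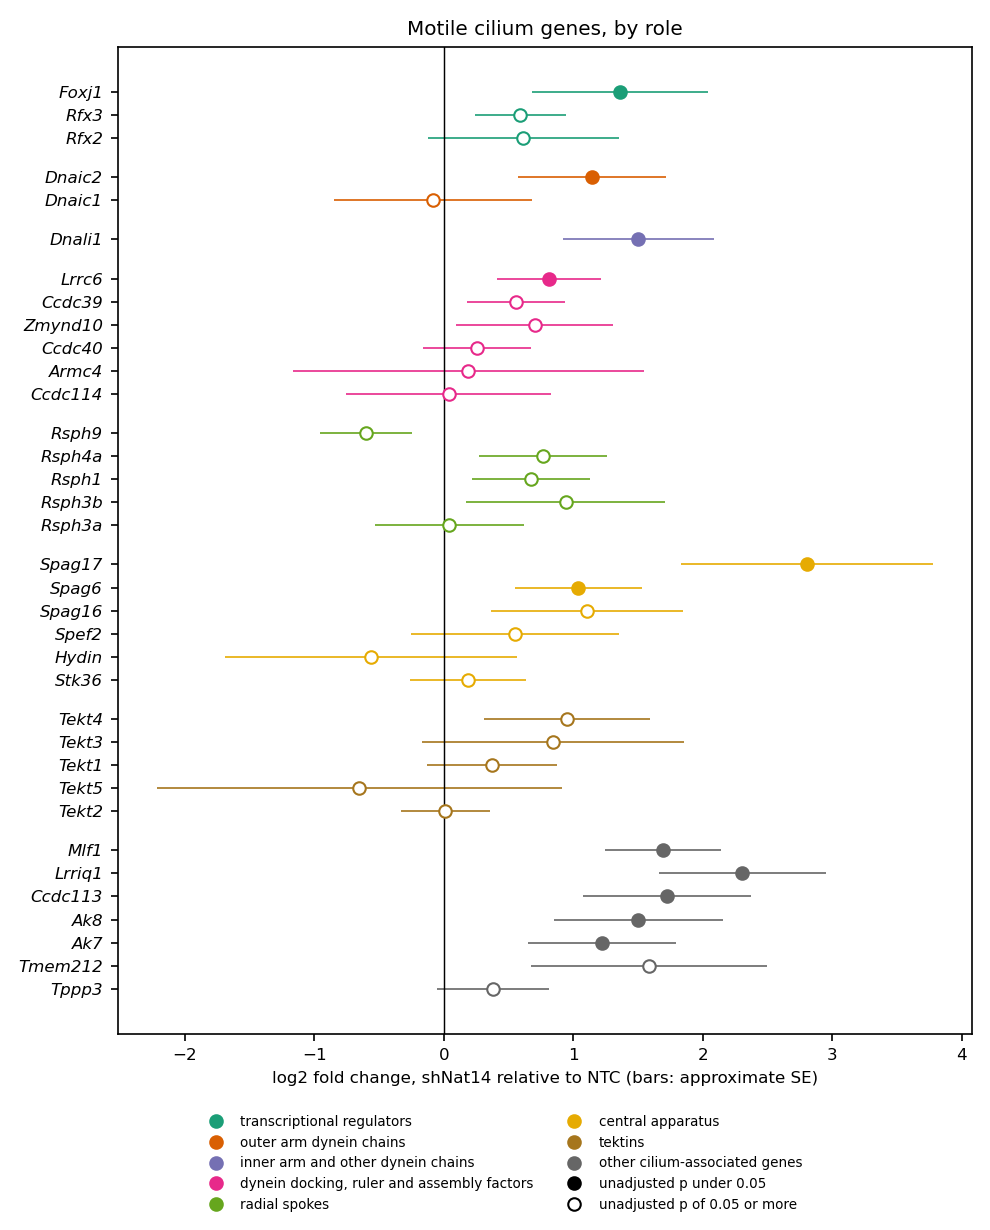
Log2 fold change (shNat14 relative to NTC) of the 35 motile cilium genes above the lowest level, grouped by role and ordered by p within a role, with approximate SEs as bars. Filled points mark the 11 genes at unadjusted p under 0.05, all of them to the right of 0, and the 4 genes left of 0 are Dnaic1, Rsph9, Hydin and Tekt5.

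Foxj1, the forkhead factor that drives motile cilium genes, had a log2 fold change of 1.36 (2.57-fold, approximate SE 0.68, p = 0.0459, adjusted p = 0.985) in the authors' deposited table, with a mean level of 2.17 log2 CPM. Rfx3 and Rfx2, which bind the X-box of cilium genes, stood at 0.59 (SE 0.35, p = 0.0926) and 0.61 (SE 0.74, p = 0.405) in the authors' deposited table. Per kilobase of the longest GENCODE M21 transcript, the mean levels were 3.60 log2 CPM for Rfx3, 0.78 for Foxj1 and -0.16 for Rfx2. Multicilin has a row under the older symbol Gm6320, with a log2 fold change of 0.91 (SE 0.70, p = 0.191) and a mean level of 2.22 log2 CPM in the authors' deposited table. All 4 of these regulators thus had positive fold changes, and only that of Foxj1 had an unadjusted p under 0.05. Among the multiciliation genes compared below, 17 had a positive and 4 a negative fold change. Gmnc of that list (listed as Gm606) stood at -0.59 (p = 0.756), with a mean level of -1.42 log2 CPM, in the authors' deposited table. E2f4 of that list stood at 0.00, with a mean level of 2.72 log2 CPM, in the authors' deposited table.

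Of the dynein chains listed by current symbol, 2 of 3 had an unadjusted p under 0.05, against 6.35% of all genes above the lowest level. The heavy chains, under older symbols, are not in this count and are given below. Dnali1, the light intermediate chain of inner arms, had a log2 fold change of 1.50 (SE 0.58, p = 0.0097, adjusted p = 0.652) in the authors' deposited table, with a mean level of 2.55 log2 CPM. It overlaps Gnl2 in the RefSeq annotation, which stood at 0.22 with a mean level of 7.01 log2 CPM in the authors' deposited table. Dnaic2, an intermediate chain of outer arms, stood at 1.14 (SE 0.57, p = 0.0440) in the authors' deposited table. Its partner Dnaic1, the other intermediate chain of the same arm, stood at -0.08 (SE 0.76, p = 0.913) in the authors' deposited table, with a mean level of 1.52 log2 CPM. The approximate SEs of this pair overlap, and their difference was not tested.

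The heavy chains are the motor subunits. Under Dnahc symbols 10 were found, and 5 further heavy chain symbols had no row under any name tried. Of these rows 6 had a positive (60%) and 4 a negative fold change, with a median log2 fold change of 0.32. At unadjusted p under 0.05 there were 2 (20%). Among all genes above the lowest level, 52.4% had a positive fold change and 6.35% passed this threshold. Dnahc10, an inner arm chain, had a log2 fold change of 2.27 (SE 0.72, p = 0.00168, adjusted p = 0.287) in the authors' deposited table, with a mean level of 0.74 log2 CPM. Dnahc8, an outer arm chain known best from sperm, stood at 2.002 (SE 0.65, p = 0.00204, adjusted p = 0.32) in the authors' deposited table. The other 8 rows had unadjusted p from 0.127 to 0.939. Dnahc5, the outer arm chain of airway and ependymal cilia, stood at 1.30 (SE 0.96) and Dnahc2, an inner arm chain, at 1.09 (SE 0.72) in the authors' deposited table. In the authors' deposited table the other outer arm chains had values of -0.41 for Dnahc9, -0.54 for Dnahc11 and -0.58 for Dnahc17, with SEs from 0.77 to 1.19. Dnahc1, Dnahc7b and Dnahc6 of inner arms lay between -0.06 and 0.32 in the authors' deposited table. The heavy chain rows were low, at a median mean log2 CPM of 1.14, and Dnahc7b has near-identical copies in the genome, so reads may have been shared between them.

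Factors that dock, space or preassemble the arms had positive fold changes in 6 of 6 genes, with a median of 0.41 on the log2 scale. Lrrc6, a cytoplasmic factor that preassembles dynein arms, had a log2 fold change of 0.81 (SE 0.40, p = 0.0437, adjusted p = 0.985) in the authors' deposited table. Its partner Zmynd10 stood at 0.70 (SE 0.61, p = 0.247) in the authors' deposited table. Ccdc39 and Ccdc40, which together form the ruler that sets the spacing of inner arms and spokes, stood at 0.56 (SE 0.38, p = 0.144) and 0.26 (SE 0.41, p = 0.537) in the authors' deposited table. The outer arm docking genes Armc4 and Ccdc114 stood at 0.19 (SE 1.36) and 0.04 (SE 0.79) in the authors' deposited table, the lowest fold changes of this group.

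Of the 5 radial spoke genes above the lowest level 4 had a positive and 1 a negative fold change. Rsph4a, Rsph1 and Rsph9, all spoke head proteins, stood at 0.77 (SE 0.49, p = 0.12), 0.67 (SE 0.46, p = 0.142) and -0.60 (SE 0.36, p = 0.0911) in the authors' deposited table. Rsph9 was the single gene with a negative fold change among the 26 members at or above the median level of all genes (log2 CPM 1.71). It overlaps Mrps18a in the RefSeq annotation, a mitochondrial ribosome gene that stood at -0.04 in the authors' deposited table. Per kilobase of transcript, Rsph9 and Rsph1 had mean levels of 5.11 and 4.92 log2 CPM, the highest among the spoke genes. The stalk genes Rsph3b and Rsph3a, near copies on chromosome 17, stood at 0.94 (SE 0.77) and 0.04 (SE 0.57) in the authors' deposited table, and reads may have been shared between them. None of these 5 genes had an unadjusted p under 0.05, against 6.35% of all genes above the lowest level.

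The central apparatus held the largest fold change of the 36 genes. Spag17, a large protein of the central pair, had a log2 fold change of 2.81 (6.99-fold, SE 0.97, p = 0.00397, adjusted p = 0.425) in the authors' deposited table. Its mean log2 CPM of 1.09 was below the median of all genes. Spag17 overlaps Wdr3 in the RefSeq annotation, which stood at 0.13 with a mean level of 5.50 log2 CPM in the authors' deposited table. Spag6, an armadillo repeat protein of the central pair, stood at 1.04 (SE 0.49, p = 0.0349) in the authors' deposited table. RefSeq lists a pair of genes that each carry this symbol as a current or older name, so which copy the row counts is unresolved. Spag16 stood at 1.10 (SE 0.74, p = 0.136) and Spef2 at 0.55 (SE 0.80, p = 0.492) in the authors' deposited table. Stk36, a kinase needed to build the central pair, stood at 0.19 (SE 0.45) in the authors' deposited table. Hydin, a very large protein of the same structure, stood at -0.56 (SE 1.13, p = 0.618) in the authors' deposited table, with a mean level of 0.06 log2 CPM.

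Tektins showed no gene at unadjusted p under 0.05, against 6.35% of all genes above the lowest level. Tekt4 and Tekt1 had log2 fold changes of 0.95 (SE 0.64, p = 0.139) and 0.37 (SE 0.50, p = 0.461) in the authors' deposited table. Tekt2, at a mean log2 CPM of 4.82, stood at 0.01 (SE 0.34, p = 0.973) in the authors' deposited table. This SE was the smallest among the members, but the approximate SE is unreliable at so small a fold change. Tekt3 and Tekt5, both below log2 CPM 0, stood at 0.84 (SE 1.01) and -0.65 (SE 1.57) in the authors' deposited table.

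The remaining 7 cilium-associated genes held 5 of the 11 genes at unadjusted p under 0.05 and the smallest p-values of all. Mlf1, a small protein found in ciliated cells, had a log2 fold change of 1.69 (3.23-fold, SE 0.45, p = 0.000156, adjusted p = 0.0713) in the authors' deposited table. It was the only member at adjusted p under 0.10, where 0.251% of all genes in either direction and 0.0957% in this direction were found. Its mean log2 CPM was 5.90, and per kilobase of transcript its level of 5.74 log2 CPM was the highest of the 36 genes. Lrriq1, a leucine-rich repeat and IQ motif protein, stood at 2.30 (4.94-fold, SE 0.64, p = 0.000344, adjusted p = 0.114) in the authors' deposited table. Ccdc113, a coiled-coil protein of the axoneme and of centriolar satellites, stood at 1.72 (SE 0.65, p = 0.00766) in the authors' deposited table.

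Among the same 7, the adenylate kinases Ak8 and Ak7, which interconvert adenine nucleotides in cilia, stood at 1.50 (SE 0.66, p = 0.0219) and 1.22 (SE 0.57, p = 0.0323) in the authors' deposited table. Ak8 overlaps Spaca9 in the annotation, listed as 1700026L06Rik at 1.43 with a mean level of 0.01 log2 CPM in the authors' deposited table. Without a statement that strand was used in counting, it is unknown for this pair, and for Spag17, Dnali1, Rsph9, Dnaic1, Ccdc39, Ccdc40 and Stk36 with the genes they overlap, which gene a read came from. Tmem212, a membrane protein used as an ependymal marker, stood at 1.58 (SE 0.91, p = 0.0831) in the authors' deposited table, and Tppp3, a tubulin-binding protein, at 0.38 (SE 0.43, p = 0.384). Pifo has a row under 1700027A23Rik, with 0.92 (SE 0.62, p = 0.136) in the authors' deposited table. The 11 genes at unadjusted p under 0.05 lie on 8 chromosomes.

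Fold change and mean level were nearly unrelated among the 35 genes (Spearman's rho -0.01 across genes, which share the same libraries). The median level of all genes counts those at the lowest level. At or above it lay 26 members, of which 25 had a positive fold change, with a median of 0.73 on the log2 scale. Of the 9 below it, 6 were positive, with a median of 0.19. At or above that level 53.6% of all genes had a positive fold change.

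**Figure D2:**
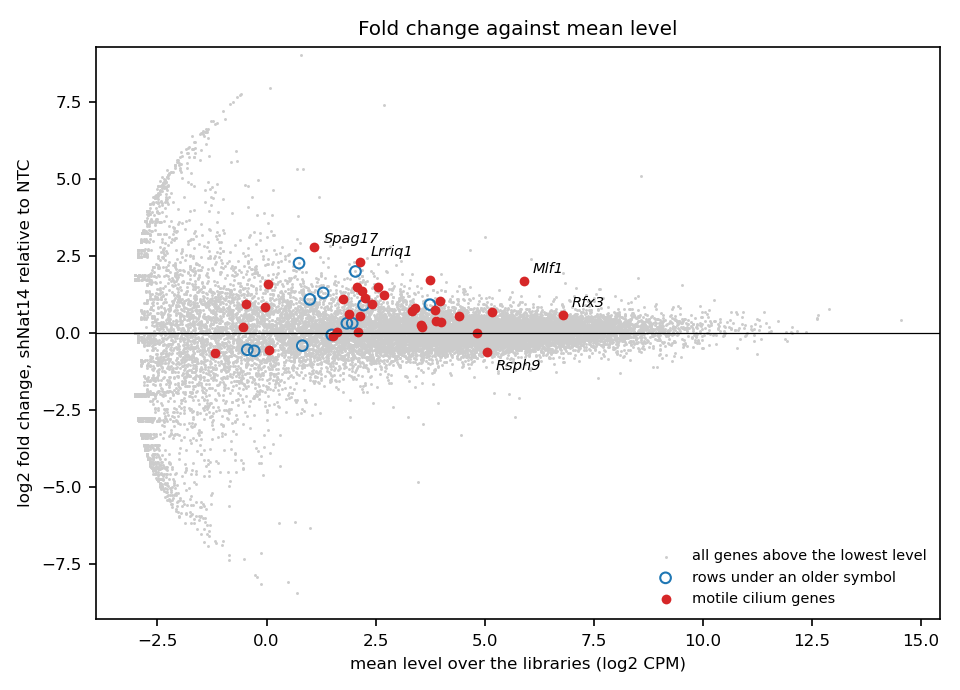
Log2 fold change (shNat14 relative to NTC) against mean level over the libraries in log2 CPM, for all 17400 genes above the lowest level (grey), the 35 motile cilium genes (red) and 12 rows matched by an older symbol (blue circles). Mlf1 at a level of 5.90 stands above the grey band at its level, and Rsph9 at 5.06 is the negative member at or above the median level.

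Motile cilium genes outside the 36 were compared from a list of 64 symbols, of which 59 rows were found, 45 by symbol and 14 by an older one. Of the 59 genes 53 had a positive fold change, the median was 0.96 on the log2 scale, and 0 passed an adjusted p of 0.05. At unadjusted p under 0.05, passed by 6.35% of all genes above the lowest level, there were 16 (27.1%), 16 higher and 0 lower. Capsl, a calcium-binding protein, had the smallest p of these in the authors' deposited table, where it stood at 1.93 (p = 0.00252). The authors' deposited table also listed Lrrc48 at 1.34, Fank1 at 1.34, Dynlrb2 at 1.48 and Nme7, of the nucleoside diphosphate kinase family and the highest in mean log2 CPM here, at 0.23. Genes of multiciliation and centriole amplification had 17 positive fold changes of 21, a median of 0.39 and 2 at unadjusted p under 0.05. In the authors' deposited table these were Ccno, the cyclin-like gene required for making many centrioles, at 1.46 (p = 0.0108), and Myb, a transcription factor of the same step, at 1.50 (p = 0.0227). Ccp110, a suppressor of ciliation listed as 6330503K22Rik and the highest of this list in mean log2 CPM, stood at 0.23 (p = 0.429) in the authors' deposited table.

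Genes of intraflagellar transport, the BBSome and the primary cilium, which most cells carry, had 36 positive fold changes of 56 (64.3%). The share was 52.4% of all genes above the lowest level, and the median of the list was 0.15 on the log2 scale. In this list 4 were higher and 1 lower at unadjusted p under 0.05 (8.93%). Of all genes above the lowest level 6.35% passed, 3.51% higher and 2.84% lower. The authors' deposited table had Ift80 at 0.96, Inpp5e at 0.81 and Ift74 at 0.78 among the higher. The lower was Kif17, a kinesin, at -3.23 with a mean level of -1.56 log2 CPM in the authors' deposited table. Kifap3, the highest of this list in mean log2 CPM, stood at 0.08 in the authors' deposited table. The medians of the lists are set side by side without a test of their difference.

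Markers of cells that carry tufts of cilia or give rise to such cells were read beside these genes. Of 26 choroid plexus epithelium markers 20 (76.9%) had a positive fold change, against 52.4% of all genes above the lowest level. Their median was 0.47 on the log2 scale. Of these markers 0 had an unadjusted p under 0.05, against 6.35% of all genes above the lowest level. Of the defining markers, the authors' deposited table had Ttr at 1.80 (p = 0.065), Kcne2 at 1.85 (p = 0.144), Folr1 at 0.91 (p = 0.326) and Otx2 at -0.22 (p = 0.758). All 26 markers lay above the lowest level, from -2.08 to 8.52 mean log2 CPM, the highest being Ttr. Of 13 further ependymal markers 7 had a positive fold change and the median was 0.05, with values from -1.79 to 6.46. At unadjusted p under 0.05 there were 3 (23.1%), 2 higher and 1 lower. Gmnc is in this list and also in that of multiciliation. Sntn, sentan of the ciliary tip, stood at 6.46 (SE 2.80, p = 0.0209) at a mean log2 CPM of -1.46 in the authors' deposited table. At so low a level the fold change and SE of Sntn are unreliable. The authors' deposited table had Mia (listed as Mia1) at 1.37 (p = 0.0481), Cd38 at -1.79 (p = 0.048) and Cd24a at 0.08 (p = 0.767). Of 24 radial glia markers 10 had a positive fold change and the median was -0.10, with Notch2 at 1.04 (p = 0.023), Aldoc at -0.67 (p = 0.0321) and Fabp7 at -0.11 (p = 0.748) in the authors' deposited table. The part of choroid plexus or ependymal cells in the values of the motile cilium genes was not tested.

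**Figure D3:**
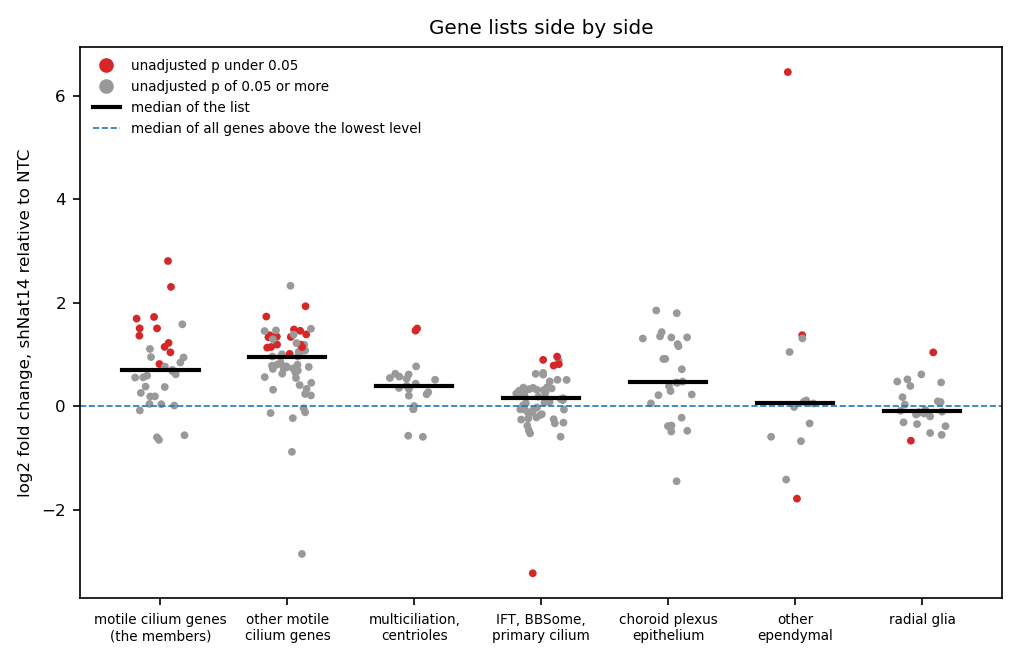
Log2 fold change (shNat14 relative to NTC) of each gene in the 7 lists, with list medians as black bars, the median of all genes above the lowest level as a dashed line and genes at unadjusted p under 0.05 in red. The medians were 0.70 for the 35 motile cilium genes, 0.96 for other motile cilium genes, 0.47 for choroid plexus markers and -0.10 for radial glia markers.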

How the data were processed

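RNA of 6 libraries (3 shNat14, 3 NTC) was sequenced from sorted cortical cells, grouped by sample title. Per the file headers, the deposited table gives a log2 fold change, a mean level in log2 CPM, a p-value and an adjusted p-value per gene. These log2 values and p-values were computed by the authors and used unaltered. Tools listed in the submitters' processing notes, with no role, are DESeq, HTSeq 0.5.4p1, TopHat2 2.0.8 and SAMtools 0.1.19, beside the human build hg19. The sources used here do not give the normalization, filters, any prior count or the test, and no coordinates of the table are used. Adjustment of the deposited p-values by Benjamini-Hochberg over all 21937 rows gave the deposited adjusted values to within 4.05e-05.

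Approximate SE is the absolute log2 fold change over the two-sided normal quantile of the p-value. It is unreliable for genes of low level and for very small fold changes. Older symbols were matched through RefSeq GRCm38.p6, where 1 row and no other gene's current symbol was found. Levels per kilobase used the longest GENCODE M21 transcript. Promoters are RefSeq GRCm38.p6 windows. The adjustment and motif search were tested on simulated data. Named are all regulators, genes at unadjusted p under 0.05, and in each role those with the highest level, smallest p and largest fold changes at or above log2 CPM 0. From each other list, at most 4 genes at unadjusted p under 0.05 and the gene of highest level were eligible. Other genes and the neuronal markers were named after their values were seen. The members, lists and motifs were chosen with earlier results of these data known. Alternatives were other thresholds, adjustments, level filters, centring and membership. The number of columns of per-sample values left unused was 0. Python 3.11.15, pandas 2.3.3, numpy 2.4.6 and scipy 1.17.1 were used.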

Additional observations from a re-analysis of the deposited data

How the results depend on the processing

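The number of the 36 genes called, 0 at adjusted p under 0.05, was 1 (Mlf1) at a threshold of 0.10 and 11 when p was left unadjusted. Over all genes these settings called 34, 55 and 1105. The number of members was 0 with adjustment limited to genes above the lowest level, or to those no lower than the median level. It was also 0 with Bonferroni correction. Over all genes these 3 settings called 43, 16 and 17. The median log2 fold change, 0.70, was 0.73 at or above the median level, 0.73 without the transcriptional regulators, 0.73 at or above log2 CPM 2 (a filter chosen after the data were seen), 0.69 with Rsph6a included and 0.67 after re-centring by 0.03. It was 0.70 with the rows of older symbols added. The number of positive fold changes, 31 of 35, was 28 of 31 at or above log2 CPM 0, 30 of 35 re-centred and 39 of 47 with older symbols. The choroid plexus median, 0.47, was 0.43 re-centred. No paired analysis was possible because values per library are not in the table used here, and for the same reason fits without each library, other normalizations and other count filters were not run. Low levels limit single genes: 9 of the 35 lay below the median level of all genes, and the depth is unknown. That median level counts the genes at the lowest level. The 35 genes had a median mean level of 2.42 log2 CPM, against 3.32 over the 17400 genes above the lowest level.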
